A study of Mus musculus with 6 samples.

Results

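Spinal cord B is 1 of 12 cell groups, called fates in the deposited cell annotation, of mouse stembryos. Stembryos are made by aggregating embryonic stem cells, and after a pulse of a Wnt agonist they elongate in culture and form tissues of the trunk. The cells of Spinal cord B were chosen by that name alone and numbered 1787 of 26968 cells. All stembryos were wild type, had been made from mES cells, and had been profiled by droplet-based single-cell RNA-seq 120 h or 96 h after aggregation. At 120 h there were 2 libraries of whole stembryos, here whole replicate 1 and whole replicate 2, and 1 library each of the posterior and the anterior part of a dissected pool, and at 96 h there were 2 libraries of whole stembryos. Each library pooled many stembryos, and only those that had elongated were taken at 120 h.

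The spinal cord forms from neuromesodermal progenitors, the cells of the tail bud that give rise to both the neural tube and the paraxial mesoderm. While Wnt and FGF signals hold cells in the growth zone, retinoic acid made by the somites promotes their progress to neural progenitors. Along the back-to-belly axis of the neural tube, progenitors then express distinct transcription factors, with Pax3 and Pax7 in dorsal, Dbx1 and Dbx2 in intermediate and Nkx6-1, Olig2 and Foxa2 in ventral domains, and with Pax6, Irx3 and Irx5 over broad intermediate stretches. Their Hox genes record the position along the head-to-tail axis. Of the other fates, Spinal cord A (3518 cells) and NMPs C (3516 cells), named for neuromesodermal progenitors, were the nearest to compare.

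Levels are UMI counts, that is counted molecules, summed over the cells of a fate in a library and scaled to counts per 1000000 UMIs of that fate and library (CPM). Differences are log2 of Spinal cord B over the other cells of the same library after 1 CPM was added to both, so each library serves as its own control. Where 3 values stand in a row, they are those of whole replicate 1, whole replicate 2 and the posterior part. A gene is called higher or lower when it differed by at least 2-fold in the same direction in all 3 of these libraries, among genes with a mean of at least 5 CPM. This mean is over both sides, so a gene under 5 CPM on 1 side passes only through the other, which fixes its direction. Counts on gene lists include such genes. Because the fates had been clustered from these same counts, and an exact permutation test over 3 libraries could not go below p = 0.25, the differences are given as a description with no test. Mean values are given ± SD over these 3 libraries. Whether the replicate libraries came from separate cultures is not given in the labels.

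The 3 libraries held 287, 540 and 943 Spinal cord B cells with 5115769, 5590311 and 15093831 UMIs and a median of 17485, 9939 and 14601 UMIs per cell. Only 16 such cells, with 270739 UMIs in all, were found in the anterior part, so its values are printed but enter no call. Median mitochondrial shares of Spinal cord B cells were 1.77% to 2.36%. Between 0 and 11 cell barcodes were shared by any pair of the 6 libraries, and none by Spinal cord B cells of 2 libraries.

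Spinal cord B cells were a 120 h population. At 96 h, 0 of 4938 cells of replicate 1 bore this name, which allows a share of up to 0.0608%, and 1 of 2649 cells of replicate 2. At 120 h they made up 5.90% of whole replicate 1 (95% Wilson interval 5.27% to 6.59%) and 20.1% of whole replicate 2 (18.7% to 21.7%), so the replicates differed by more than counting error. The posterior part held 12.0% (11.3% to 12.7%) and the anterior part 0.406% (0.2499% to 0.658%). Of all spinal cord cells, those named A or B, the B cells were 54.4% and 63.5% in the whole libraries and 24.6% in the posterior part. The intervals cover counting error only, and the 2 whole libraries also differed in depth and, per the deposited annotation of cells, in batch and in the version of the droplet chemistry.

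**Figure D1:**
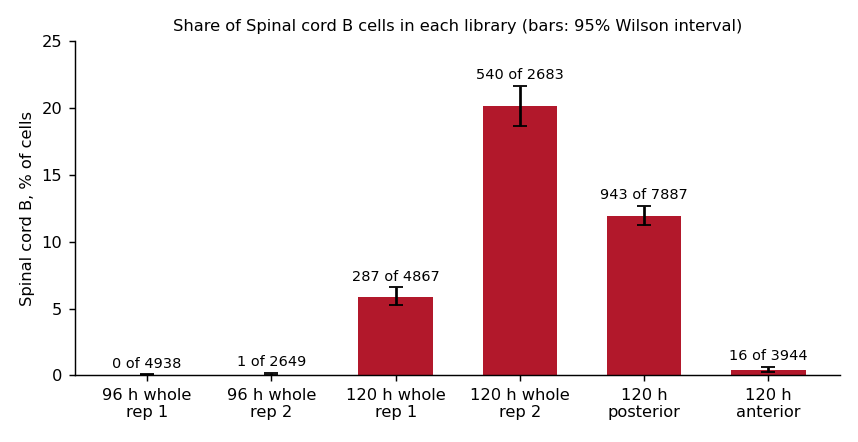
Share of Spinal cord B cells in each of the 6 libraries, in percent of all cells on the vertical axis, with the number of cells above each bar and 95% Wilson intervals as black lines. The 2 libraries at 96 h are at or near 0, while whole replicate 2 at 120 h reaches 20.1% and the anterior part stays at 0.406%.

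The 9 genes given as markers of this fate had been picked from these data, so their levels describe the fate and do not check its name. All 9 were called higher in Spinal cord B than in the rest of each library, which that choice had largely fixed. Of the 9587 genes counted, 0.814% were called higher and 1.25% lower. All 9 were also at their highest in Spinal cord B among the 7, 9 and 10 fates with at least 20 cells in the 3 libraries. In GRCm38 coordinates, the genes lie at chr14:118233232-118237030 (Sox21), chr7:93079865-93081867 (Fam181b), chr10:84756062-84906538 (Rfx4), chr12:44328885-44601964 (Nrcam), chr7:109798676-109865679 (Scube2), chr14:103814625-103844402 (Ednrb), chr2:105668900-105697364 (Pax6), chr8:92357625-92376286 (Irx5) and chr8:91798525-91802067 (Irx3). Irx3 and Irx5 are thus neighbours in 1 cluster of Iroquois genes.

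Sox21, a SOXB factor that represses targets of Sox1 to Sox3 in neural progenitors, had 58.6, 92.1 and 36.1 CPM in Spinal cord B cells, against 1.05, 3.72 and 1.09 CPM in the rest (log2 4.44 ± 0.38). Fam181b had 52.0, 65.5 and 40.3 CPM in Spinal cord B, against 2.69, 2.76 and 2.39 CPM in the rest (log2 3.87 ± 0.27). Rfx4, a winged-helix factor of the neural tube, had 26.2, 37.2 and 19.8 CPM, against 0.750, 1.33 and 1.08 CPM in the rest. In all of these the lowest library of Spinal cord B stood far above the highest of the rest.

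Scube2, a secreted protein that helps to release hedgehog ligands, had 35.6, 37.0 and 51.5 CPM in Spinal cord B, against 1.14, 3.62 and 3.48 CPM in the rest. It was the 1 marker of the 9 with its highest value in the posterior part. Ednrb, the endothelin receptor known for its role in neural crest, varied more, with 28.5, 61.2 and 10.3 CPM in Spinal cord B, against 0.660, 1.38 and 0.473 CPM in the rest. For Nrcam, a neural cell adhesion molecule, the values were 34.0, 46.9 and 20.01 CPM in Spinal cord B, against 0.776, 2.57 and 1.22 CPM in the rest. Whole replicate 2 thus had the highest value of 8 of the 9 markers, also of Pax6, Irx3 and Irx5 below.

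In the 16 anterior cells, which no call used, the 9 markers summed to 528.2 CPM (143 UMIs), against 4.73 CPM in the other 3928 anterior cells. The sum was 421.2, 683.3 and 329.9 CPM in Spinal cord B of the other 3 libraries, 49.3, 67.2 and 59.6 CPM in Spinal cord A and 45.2, 97.0 and 20.4 CPM in NMPs C. Of the 78 genes called higher against the rest, 75 were also above the rest in the anterior part and 65 were past 2-fold there. Of the 120 called lower, 95 were below it. Among all 9587 genes counted, 4767 were above the rest in the anterior part. The anterior cells had been clustered together with the others, so this is no independent check of the name.

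**Figure D2:**
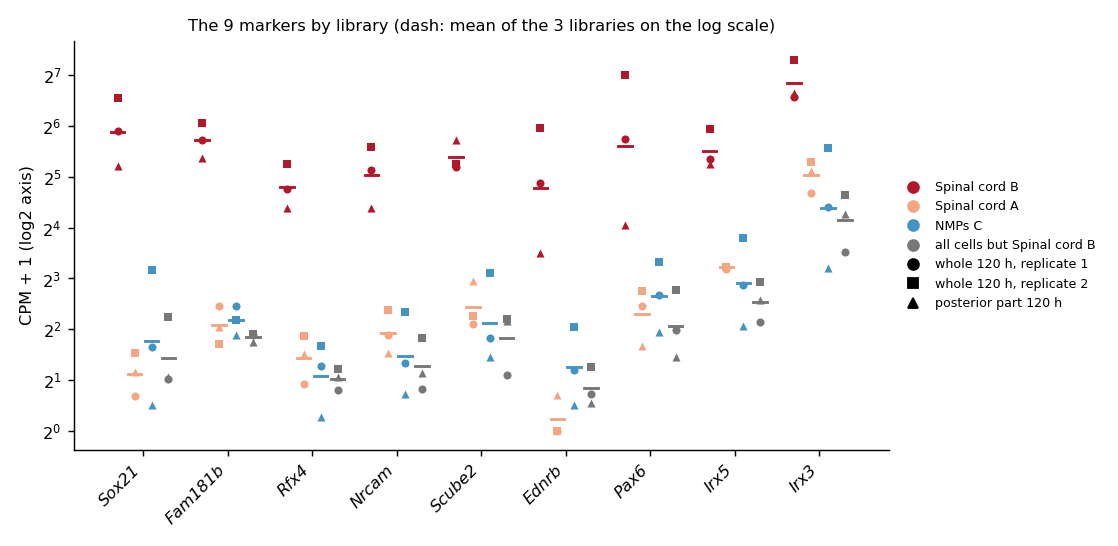
Levels of the 9 markers on a log2 axis of CPM + 1 in Spinal cord B, Spinal cord A, NMPs C and all cells but Spinal cord B, with 1 point per library and a dash at the mean. In Spinal cord B, Sox21 lies between 36.1 and 92.1 CPM, and each marker is higher there than in the 3 other groups in every library.

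After the markers, the genes highest above the rest by the naming rule were Fndc5, Hes3, Apela, Nedd9, Fgfbp3 and Akap12. Apela encodes a small secreted ligand of the apelin receptor and had 76.8, 94.8 and 71.5 CPM in Spinal cord B, against 5.11, 14.7 and 14.9 CPM in the rest. Hes3, a transcriptional repressor that maintains neural stem cells, had 52.6, 50.4 and 70.6 CPM, against 6.77, 8.53 and 13.1 CPM in the rest. Fndc5, a membrane protein, had 40.3, 72.6 and 63.7 CPM, against 5.42, 7.05 and 9.54 CPM. The adhesion scaffold Nedd9, the FGF carrier protein Fgfbp3 and the kinase anchor Akap12 had log2 differences of 2.52 ± 0.30, 2.04 ± 0.05 and 2.16 ± 0.31. Of the 78 called genes, 64 were highest in Spinal cord B among the fates in all 3 libraries, against 2.22% of the 9587 genes counted. The exceptions included Sox2 and Apela, which each had a higher level in another fate of at least 1 library. The 78 genes had been picked for standing above the pooled other fates, so a high share was largely fixed in advance.

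The genes farthest below the rest belonged mainly to paraxial mesoderm and to the growth zone. Tcf15, a factor of the somites, had 21.9, 35.8 and 8.55 CPM in Spinal cord B, against 472.3, 385.3 and 192.0 CPM in the rest. Dmrt2 and Uncx, both transcription factors of somites, averaged 1.03 ± 0.73 and 5.34 ± 4.85 CPM, against 23.4 ± 11.4 and 73.5 ± 57.9 CPM in the rest. Hes7 and Dll3, of the segmentation clock, had log2 differences of -3.48 ± 0.43 and -3.17 ± 0.36. Those of the Wnt genes Sp5 and Rspo3 were -3.51 ± 0.43 and -3.41 ± 0.23. Pcdh19, a protocadherin, Inka1, an inhibitor of PAK kinases, and Dppa5a, a gene of pluripotent cells, completed the 10, with -3.99 ± 0.69, -3.15 ± 0.29 and -4.36 ± 0.98. These differences depend on what else a library holds, so the nearest fates were compared next.

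Within the neural progenitor list, 5 of the 19 genes past the filter were called higher than in the rest and 1 lower. Of these 5, the marker Sox21 passed the filter only through its level in Spinal cord B. The median log2 difference of the list was 0.58, beside 0.01 for all genes counted. Sox1, Sox2 and Sox3, the SOXB1 factors that hold cells in the neural progenitor state, were all called. Sox2 had 259.2, 322.9 and 277.8 CPM in Spinal cord B, against 72.1, 117.3 and 124.1 CPM in the rest. Sox1 had 38.7, 43.6 and 28.4 CPM, against 4.46, 8.43 and 7.29 CPM, and Sox3 had 116.5, 97.1 and 91.8 CPM, against 17.7, 20.3 and 27.8 CPM. Against Spinal cord A, Sox1 was called too, while Sox2 and Sox3 were higher in all 3 libraries by 0.61 ± 0.14 and 1.17 ± 0.25 and fell short of the call.

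Genes of neurogenesis and neurons were mostly too low to be compared. Of the 26 on this list, 9 passed the filter against the rest, of which 0 were called higher, near the background of 0.814%, and 3 lower (Dll1, Dll3 and Mnx1). Neurog2, a proneural factor, had 1.37, 4.11 and 0.46 CPM in Spinal cord B, against 0.91, 0.76 and 0.21 CPM in Spinal cord A. Dcx and Nhlh1, genes of young neurons, were at 0 in all cells of the 4 libraries. Of defining neural crest genes, Sox10 was at 0 and Foxd3 at 0.20, 0.00 and 0.00 CPM in Spinal cord B, although Ednrb, on that list, was high.

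Position along the dorsoventral axis was read from 2 lists. Of the 14 intermediate and ventral genes in the table, 5 passed the filter against Spinal cord A, and all 5 were called higher. They were Pax6, Irx3 and Irx5, which are among the markers, and Dbx1 and Dbx2. Pax6, Dbx1 and Dbx2 passed only through their level in Spinal cord B, so they had to differ, and the count is no support for a direction of the list. Of the 9432 genes counted in this comparison, 0.679% were called higher and 0.403% lower. On the dorsal list 1 of 8 was called higher, Pax7, which also passed only through its level in Spinal cord B.

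Pax6 had 52.2, 127.4 and 15.6 CPM in Spinal cord B, against 4.53, 5.72 and 2.17 CPM in Spinal cord A. Its level thus differed widely between libraries of Spinal cord B, but the groups did not overlap. Irx3 had 94.2, 155.8 and 99.1 CPM in Spinal cord B, against 24.5, 38.2 and 33.5 CPM in Spinal cord A, and Irx5 had 39.9, 60.3 and 37.0 CPM, against 8.16, 8.40 and 8.45 CPM. Dbx2, which marks intermediate progenitors, had 10.4, 11.3 and 10.5 CPM in Spinal cord B, against 0.00, 0.38 and 0.55 CPM in Spinal cord A. Dbx1, in a narrower domain of the same region, had 8.21, 17.7 and 2.78 CPM, against 0.60, 0.76 and 0.42 CPM. While Dbx2 was level across the 3 libraries, Dbx1 was, like Pax6, highest in whole replicate 2 and lowest in the posterior part.

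The dorsal factor Pax7 had 20.9, 13.8 and 9.01 CPM in Spinal cord B, against 4.84, 3.82 and 3.19 CPM in Spinal cord A. Pax3 was also higher than in Spinal cord A in all 3 libraries, by 1.12 ± 0.20, but lower than in the rest, which holds somite cells that express it. Msx1, of the dorsal midline, went the other way, with 9.38, 13.4 and 21.0 CPM in Spinal cord B, against 19.3, 32.4 and 36.5 CPM in Spinal cord A. Lmx1a, a roof plate gene, was at 0, and so was Shh, the hedgehog ligand of the floor plate. Foxa2 had 0.00, 0.00 and 0.07 CPM. The ventral factors Nkx6-1 and Olig2 had at most 1.52 and 0.78 CPM in these libraries. In the anterior part, Nkx6-1 stood at 29.5 CPM, but all 8 of its UMIs came from 1 of the 16 cells.

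**Figure D3:**
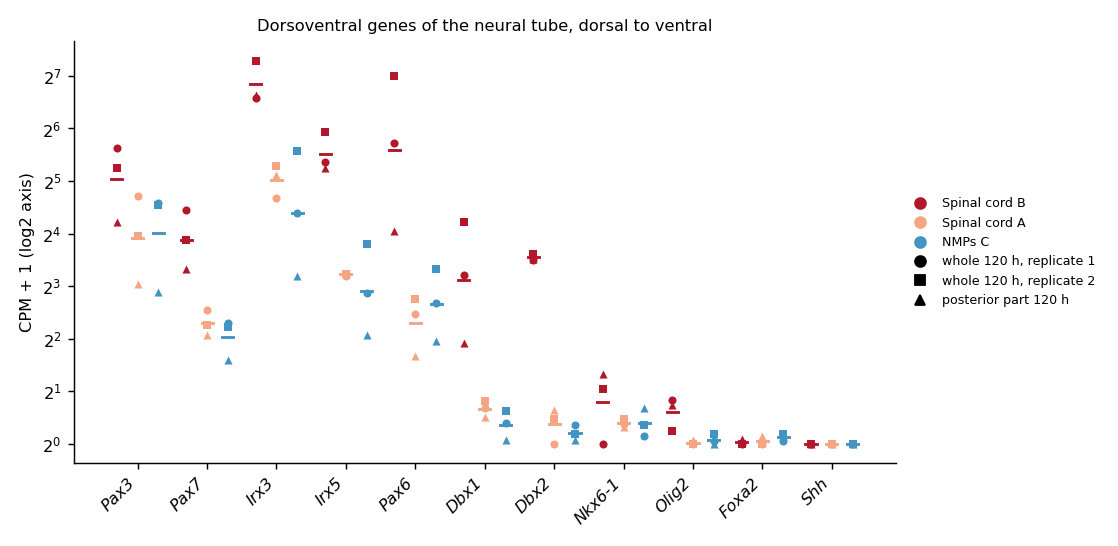
Levels of dorsoventral genes of the neural tube on a log2 axis of CPM + 1, from dorsal on the left to ventral on the right, in Spinal cord B, Spinal cord A and NMPs C, with 1 point per library and a dash at the mean. Pax6, Dbx1 and Dbx2 stand well above the other 2 fates in Spinal cord B, while Nkx6-1, Olig2, Foxa2 and Shh are near 0 in all 3 fates.

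To see how many cells carried these transcripts, each cell was thinned to 5000 UMIs, which left out 33 Spinal cord B, 63 Spinal cord A and 67 Somite A cells of whole replicate 2 and, of these fates in the other libraries, 4 Somite A cells of the anterior part. At this depth Pax6 was found in 22.3%, 38.7% and 7.64% of Spinal cord B cells, against 0.43%, 2.08% and 0.00% of Somite A cells, which should lack it. Without thinning, the shares were 48.4%, 55.6% and 18.2% at a median of 17485, 9939 and 14601 UMIs in Spinal cord B, against 1.79%, 2.80% and 0.00% at 15498, 8601 and 11295 UMIs in Somite A. Sox21 was found in 21.6%, 33.9% and 15.1% of thinned Spinal cord B cells, against 0.17%, 0.17% and 0.00% of Somite A cells. In endoderm of the posterior part, however, Sox21 was found in 7.10% of cells. Dbx1 and Dbx2 were found in few cells of Spinal cord B, with 3.14%, 6.11% and 1.38% for Dbx1 and 5.23%, 4.73% and 4.56% for Dbx2, against at most 0.053% of Somite A cells for either in any of the 4 libraries.

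The median thinned Spinal cord B cell had UMIs for 2, 2 and 1 of the 9 markers. At least 3 markers were found in 25.4%, 49.3% and 15.9% of Spinal cord B cells, against 0.00%, 0.00% and 0.17% of Spinal cord A cells. None of the 9 was found in 15.3%, 7.30% and 21.5% of Spinal cord B cells, against 81.3%, 68.5% and 76.4% of Spinal cord A cells. With 8000 UMIs per cell, the share of Spinal cord B cells without any marker was 5.34%, 1.73% and 9.003%. A missing marker in a cell therefore depends on depth, and the order of the 3 libraries was the same at both depths.

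Retinoic acid acts through nuclear receptors that bind repeated half-sites in DNA, and the receptor gene Rarb is a direct target of its own ligand. The upstream stretch of its RefSeq promoter (GRCm38.p6, minus strand, chr14:16575477-16575576) is shown because Rarb was called higher in Spinal cord B against all 3 references. It runs 5′ to 3′ up to the base before the start, and capitals mark 2 GTTCA half-sites in the same direction with 6 bases between them.
Rarb: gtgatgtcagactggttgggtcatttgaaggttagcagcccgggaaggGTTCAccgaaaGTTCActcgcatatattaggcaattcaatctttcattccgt
The letters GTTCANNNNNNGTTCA, searched on both strands, were found in 22 of 32851 promoter windows of the 250 bases before a start (0.067%). Of the 78 genes called higher against the rest, 56 had such a window, and Rarb was the 1 gene among these with the letters. A match of letters is a description and not evidence of binding.

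Rarb had 14.5, 19.9 and 9.14 CPM in Spinal cord B, against 1.81, 2.29 and 0.90 CPM in Spinal cord A and 2.70, 3.67 and 1.24 CPM in the rest. Its log2 difference of 2.51 ± 0.13 over Spinal cord A varied little across libraries. On the retinoic acid list, 5 of 16 genes past the filter were called higher than in Spinal cord A and 1 lower, with a median of 0.62 beside 0.06 for all genes counted. The 5 were Rarb, the orphan nuclear receptors Nr2f1 and Nr2f2, and the homeobox genes Meis1 and Meis2, which are known to respond to retinoic acid. Rarb and Nr2f1 passed the filter only through their level in Spinal cord B, so they had to be higher. The count is therefore no support for a direction of the list.

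Nr2f1 had the second largest minimum difference from Spinal cord A, with 95.6, 109.8 and 29.5 CPM in Spinal cord B, against 3.63, 6.11 and 1.25 CPM in Spinal cord A. It was not limited to neural cells, since Somite A had 61.5, 56.7 and 27.2 CPM. Nr2f2 had 101.1, 127.7 and 40.9 CPM in Spinal cord B, against 35.4, 30.9 and 12.4 CPM in Spinal cord A. Meis1 and Meis2 were higher than in Spinal cord A by 1.68 ± 0.39 and 1.29 ± 0.16. Crabp2, a carrier of retinoic acid in the cytoplasm, was the most abundant gene of the list with 1176, 1403 and 948.2 CPM in Spinal cord B, against 439.5, 522.0 and 478.8 CPM in Spinal cord A and 216.9, 300.8 and 355.2 CPM in the rest.

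Several other genes of the pathway were lower in Spinal cord B. Rarg, the receptor of the growth zone, had 8.80, 9.84 and 17.5 CPM, against 37.2, 39.7 and 41.8 CPM in Spinal cord A. Cyp26a1, which degrades retinoic acid, had 4.50, 7.16 and 13.3 CPM in Spinal cord B, against 34.3, 41.0 and 87.0 CPM in NMPs C. Stra6, a membrane receptor for retinol carriers, averaged 8.70 ± 0.97 CPM in Spinal cord B, against 22.1 ± 0.70 CPM in the rest. Aldh1a2, which makes retinoic acid, had 17.8, 2.68 and 1.33 CPM in Spinal cord B, against 11.3, 19.6 and 20.9 CPM in the rest, so its direction was not shared by the libraries.

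On the list of Wnt and growth zone genes, 0 of 20 were called higher than in Spinal cord A and 11 lower, and 19 of the 20 were below Spinal cord A in all 3 libraries. Of all genes counted there, 0.679% were called higher and 0.403% lower. The median of the list was -1.45, beside 0.06 for all genes counted. Against NMPs C, where 0.922% of the 9546 genes counted were called higher and 1.13% lower, 17 of 21 were called lower. The ligand gene Fgf8 had 9.38, 16.5 and 32.4 CPM in Spinal cord B, against 100.0, 104.9 and 134.6 CPM in Spinal cord A and 223.9, 142.2 and 310.3 CPM in NMPs C. Fgf17, a related ligand, had 2.15, 1.97 and 11.9 CPM in Spinal cord B, against 39.0, 48.5 and 69.8 CPM in Spinal cord A. In both, the posterior part had the highest value in each fate.

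Nkx1-2, a homeobox gene of the caudal lateral epiblast and preneural tube, had 11.7, 13.8 and 38.0 CPM in Spinal cord B, against 68.3, 95.4 and 119.3 CPM in Spinal cord A. Cdx2, a caudal-type homeobox gene that acts on Hox clusters, had 52.97, 33.8 and 135.9 CPM, against 220.3, 218.3 and 378.9 CPM in Spinal cord A. T, the mesoderm factor brachyury, had 8.21, 6.08 and 13.6 CPM in Spinal cord B, against 17.2, 27.5 and 33.7 CPM in Spinal cord A and 75.3, 68.0 and 133.4 CPM in NMPs C. For each of the 3 genes, the highest library of Spinal cord B remained below the lowest library of NMPs C. Sp5, Hes7, Rspo3 and Notum, an enzyme that inactivates Wnt ligands, were also among the 10 named genes farthest below Spinal cord A, with log2 differences of -3.05 ± 0.61, -3.08 ± 0.84, -2.53 ± 0.37 and -2.32 ± 0.87. The aminopeptidase gene Aopep and Tril, a gene of Toll-like receptor signalling, completed the 10 with -2.37 ± 0.56 and -1.93 ± 0.35.

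**Figure D4:**
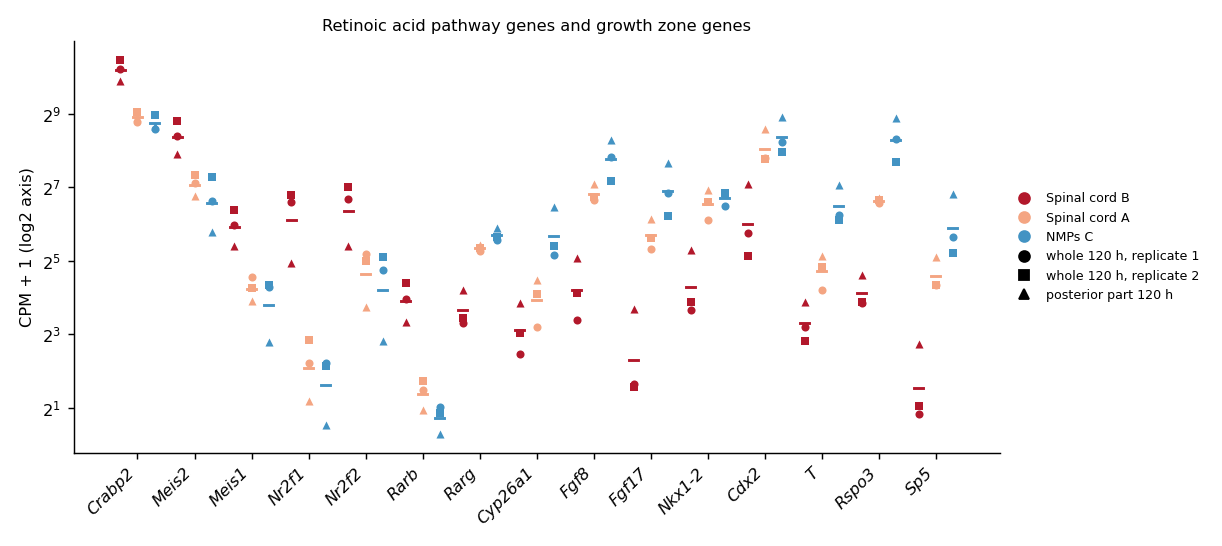
Levels of genes of the retinoic acid pathway (Crabp2 to Cyp26a1) and of the growth zone (Fgf8 to Sp5) on a log2 axis of CPM + 1 in Spinal cord B, Spinal cord A and NMPs C, with 1 point per library and a dash at the mean. Spinal cord B is the highest of the 3 fates from Crabp2 to Rarb, as in 1176 CPM of Crabp2 in whole replicate 1 against 439.5 CPM in Spinal cord A, and the lowest from Rarg to Sp5.

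All 38 genes called lower than in Spinal cord A were also called lower than in NMPs C, that is 100% of the first list and 35.2% of the 108 genes of the second. In the other direction, 56 genes were called higher against both, 87.5% of the 64 called against Spinal cord A and 63.6% of the 88 called against NMPs C. Both comparisons share the Spinal cord B cells. Against NMPs C the 6 named genes at the top were Nr2f1, Rfx4, Sox21, Fam181b, Nrcam and Ednrb, and those named at the bottom were Sp5, Fgf17, Rspo3, Hes7 and Evx1os. Rspo3, an activator of Wnt signalling, had 13.5, 13.6 and 23.2 CPM in Spinal cord B, against 316.0, 205.9 and 466.1 CPM in NMPs C. Evx1os, a transcript antisense to Evx1, had 0.98, 0.54 and 2.85 CPM, against 27.5, 24.6 and 46.3 CPM. The sources used here do not say how strands were counted, so reads of Evx1os and Evx1 may be mixed.

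Genes of adhesion and signalling were among those higher than in Spinal cord A. On the list of neural adhesion and guidance, 5 of 21 were called higher and 0 lower, and 17 were above Spinal cord A in all 3 libraries, with a median of 0.68 beside 0.06 for all genes counted. Robo2, a receptor for SLIT guidance cues, had 21.7, 25.8 and 7.09 CPM in Spinal cord B, against 0.30, 0.00 and 0.28 CPM in Spinal cord A. Pcdh8, Ptprz1 and Plxna2 were the other 3 beside Nrcam, which is among the markers. Robo2 and Nrcam passed the filter only through their level in Spinal cord B, so they had to be higher. The count is therefore no support for a direction of the list. Fgfr2, a receptor for FGF ligands, had 49.5, 40.4 and 22.3 CPM in Spinal cord B, against 11.2, 3.82 and 4.78 CPM in Spinal cord A, whereas Fgfr1 was only slightly higher, by 0.38 ± 0.08. On the list of FGF response genes, 2 of 13 were called higher (Fgfr2 and Fgfbp3) and 0 lower, beside 0.679% and 0.403% of all genes counted. In all 3 libraries 4 of the 13 were above Spinal cord A and 7 below, with a median of -0.18.

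Among hedgehog genes, Gas1, a co-receptor, had 355.4, 349.9 and 187.1 CPM in Spinal cord B, against 124.2, 103.8 and 61.0 CPM in Spinal cord A, and was called. Scube2, the other gene called, is among the markers and passed the filter only through its level in Spinal cord B. Of the pathway's target genes, Ptch1 was not called and Gli1 did not pass the filter. Ptch1 had 18.8, 31.5 and 21.6 CPM in Spinal cord B, against 14.5, 25.2 and 21.4 CPM in Spinal cord A, higher in each library and by 0.23 ± 0.18 on the log2 scale. Of the 10 hedgehog genes past the filter, 7 were above Spinal cord A in all 3 libraries and 0 below, with a median of 0.48 beside 0.06 for all genes counted. On the Notch list 0 of 13 genes were called higher and 1 lower (Dll3). Of all genes counted against Spinal cord A, 0.679% were called higher and 0.403% lower, so 0 higher is near the background.

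Otx2, a defining gene of fore- and midbrain, was at 0 in Spinal cord B of all 4 libraries.

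Both Dbx genes carry the letters CTTTGT, the core that SOX proteins recognise, in the bases before their starts. These stretches (GRCm38.p6, both on the minus strand, chr7:49636856-49636955 for Dbx1 and chr15:95654772-95654831 for Dbx2) are shown because the Dbx genes were, beside the markers, the intermediate genes called higher than in Spinal cord A. The Dbx2 stretch ends at the base before the start, and the Dbx1 stretch ends 21 bases before it. Capitals mark the letters.
Dbx1: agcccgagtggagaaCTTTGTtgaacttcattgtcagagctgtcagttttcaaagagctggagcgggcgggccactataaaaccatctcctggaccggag
Dbx2: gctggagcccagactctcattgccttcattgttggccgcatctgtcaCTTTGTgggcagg
These letters are common. Searched on both strands, they were found in 16.5% of the 32851 windows of 250 bases, and in 13.6% of the 7445 genes counted against the rest that had a window. Among the 56 called genes with a window, 13 had them (23.2%), including Sox2, Pax6 and Nr2f1. Sequences are those of RefSeq, and the genes to print were chosen after their values were seen.

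The Hox genes of Spinal cord B differed from those of Spinal cord A mainly at the posterior end. Of 28 Hox genes past the filter, 0 were called higher and 1 lower (Hoxc10), beside 0.679% and 0.403% of all genes counted. Their median was -0.07, beside 0.06 for all genes counted. The summed level of paralogs 10 to 13, the most posterior groups, was 81.1, 17.5 and 30.7 CPM in Spinal cord B, against 206.4, 124.4 and 108.3 CPM in Spinal cord A and 299.8, 172.9 and 123.3 CPM in NMPs C. Paralogs 1 to 4 summed to 786.8, 776.0 and 655.6 CPM in Spinal cord B, against 767.1, 804.0 and 696.4 CPM in Spinal cord A. For paralogs 5 to 9 the sums were 1368, 1400 and 1509 CPM, against 1454, 1584 and 1668 CPM. The log2 ratio of the sums, with nothing added, was -1.998 ± 0.76 for the group of paralogs 10 to 13, against -0.14 ± 0.05 in the group from 5 to 9 and -0.03 ± 0.06 in the group from 1 to 4. Most of the sum of paralogs 10 to 13 came from Hoxc10 and Hoxa10.

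Hoxc10 had 60.8, 10.7 and 20.9 CPM in Spinal cord B, against 157.2, 98.5 and 83.8 CPM in Spinal cord A. Hoxa10 had 19.2, 6.44 and 9.08 CPM, against 37.8, 22.1 and 21.1 CPM, and Hoxd9 had 38.7, 13.2 and 34.1 CPM, against 75.3, 65.6 and 99.2 CPM. Hoxa7 and Hoxd8 were also lower in all 3 libraries, by log2 differences of -1.06 ± 0.24 and -0.70 ± 0.55. Their neighbours in number did not share this: Hoxb9 was higher in all 3 libraries by 0.38 ± 0.24, and Hoxc9, with 192.2, 223.8 and 281.4 CPM in Spinal cord B against 182.9, 231.6 and 230.0 CPM in Spinal cord A, overlapped. Hoxc8 and Hoxb8 differed by 0.01 ± 0.12 and -0.04 ± 0.15.

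At the anterior end, Hoxa2 was higher in all 3 libraries, by 0.60 ± 0.31, and Hoxa3, Hoxb4 and Hoxd1 were lower, by -0.50 ± 0.18, -0.35 ± 0.04 and -0.89 ± 0.03. The summed HoxB cluster was nearly the same, with 940.2, 1018 and 956.3 CPM in Spinal cord B, against 907.7, 981.9 and 932.0 CPM in Spinal cord A, while the summed HoxA cluster had 367.7, 353.3 and 423.7 CPM, against 498.1, 488.4 and 572.7 CPM. Within HoxA, Hoxa7 had 82.1, 83.7 and 173.1 CPM in Spinal cord B, against 198.0, 185.1 and 300.1 CPM in Spinal cord A. Hoxa11, Hoxa13 and Hoxc13 were at 0 in Spinal cord B of all 4 libraries. The fates had been clustered from counts that include those of the Hox genes.

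**Figure D5:**
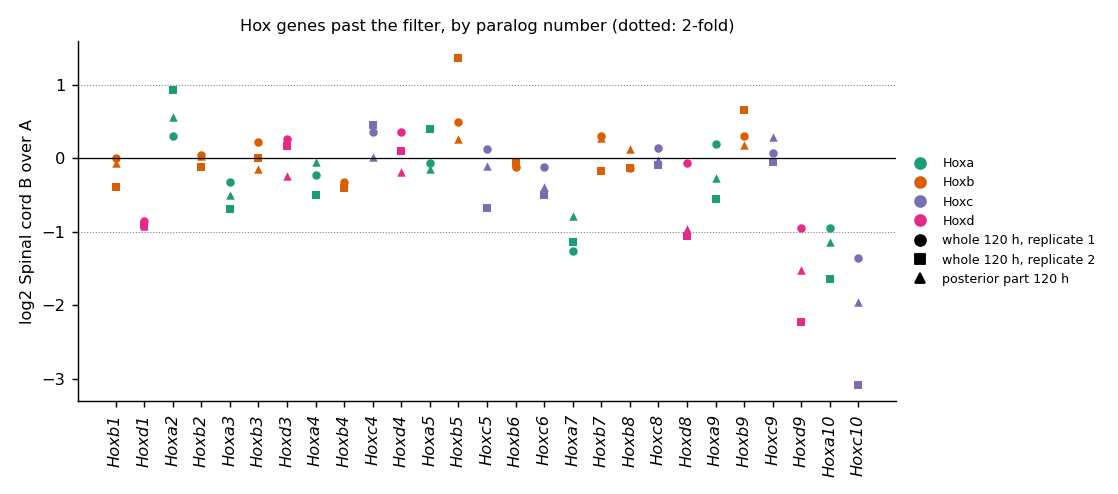
Log2 difference between Spinal cord B and Spinal cord A for Hox genes past the filter, ordered by paralog number, with 1 point per library, colours for the 4 clusters and dotted lines at 2-fold. Most genes lie near 0, and Hoxd9, Hoxa10 and Hoxc10 at the right end lie lowest, with Hoxc10 between -1.36 and -3.08.

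Spinal cord B held more cells in G2/M phase than Spinal cord A. By the phases of the deposited annotation, 47.0%, 41.5% and 43.9% of Spinal cord B cells were in G2/M phase, against 21.99%, 24.1% and 35.5% of Spinal cord A cells, and 11.5%, 17.4% and 33.3% were in G1 phase, against 36.9%, 30.2% and 39.8%. NMPs C, with 43.1%, 40.6% and 42.4% in G2/M phase, were closer. On the list of G2 and M phase genes 0 of 16 were called, near the shares of all genes counted (0.679% higher and 0.403% lower). However, 12 were above Spinal cord A in all 3 libraries, with a median of 0.55 beside 0.06 for all genes counted. With G1 cells alone, 46 genes were called higher than in Spinal cord A, 41 of them among the 64 called with all cells. Cyclin Ccnd2, a driver of G1 phase, had 334.3, 1231 and 658.7 CPM in Spinal cord B, against 162.0, 383.1 and 358.4 CPM in Spinal cord A.

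Markers of other cell types were not absent, and not all of them were lower than in the other cells. The list of somite genes summed to 141.7, 207.1 and 77.1 CPM in Spinal cord B, against 1316, 1173 and 574.4 CPM in the rest and 234.6, 145.4 and 44.4 CPM in Spinal cord A. The level in Spinal cord B was lowest in the library in which the rest was lowest. Of the 8 somite genes past the filter against Spinal cord A, 0 were called, near the shares of all genes counted (0.679% higher and 0.403% lower). Endoderm genes summed to 14.7, 23.8 and 62.2 CPM, against 13.1, 33.9 and 98.6 CPM in the rest. In Spinal cord A they had 26.0, 23.3 and 34.4 CPM. Genes of endothelium and blood had 17.2, 14.0 and 16.6 CPM, slightly above the rest with 14.1, 11.1 and 14.3 CPM. Genes of pluripotent and germ cells had 41.6, 82.3 and 47.9 CPM, against 34.8, 97.6 and 93.2 CPM in the rest. In Spinal cord A these had 21.2, 24.0 and 24.5 CPM. Of them, Ifitm3 was called higher against both, and Dppa5a lower against the rest. On the list of RNA quality and stress 0 of 4 genes past the filter were called against the rest or Spinal cord A. This is near the shares of all genes counted, 0.814% higher and 1.25% lower against the rest. Against Spinal cord A, 3 of the 4 were above in all 3 libraries and 1 below, with a median of 0.35. The list summed to 4872, 6001 and 3461 CPM in Spinal cord B, against 3059, 4894 and 3266 CPM in Spinal cord A. In the rest it had 5143, 7138 and 3736 CPM. The part of free RNA or of doublets in these values was not tested.

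Among thinned Spinal cord B cells, the variance of a gene was close to its mean for most of the 6913 genes with a mean of at least 0.05 UMIs in each library, with a median ratio of 1.02. The highest median ratio belonged to Malat1, a nuclear RNA, with 8.004, 11.2 and 5.57. Ube2c, a mitotic ubiquitin enzyme, had 4.50, 3.49 and 3.45, and Cdkn1c, an inhibitor of cyclin-dependent kinases that marks cells leaving the cycle, had 3.11, 3.13 and 2.89. The mitochondrial genes mt-Cytb, mt-Rnr2 and mt-Nd1 had median ratios of 2.84 to 3.66. Dqx1, a helicase-like gene, reached 16.6 in whole replicate 2 but 4.19 and 2.51 in the other libraries. The remaining 3 of the top 10 were predicted genes. Cells of 1 library share its depth and free RNA, so no test was made across cells.

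Cells of the anterior part were compared with those of the posterior part, with 1 library each and hence no check by replicates. Of 9049 genes counted, 479 (5.29%) were at least 2-fold higher in the 16 anterior cells and 600 (6.63%) lower. With TMM factors, which shift all genes by -0.27, the split was 211 higher and 993 lower. Exact Poisson intervals, at 95% and for counting error only, did not overlap for 110 of the higher and 69 of the lower genes. Of these, 9 of the higher genes had at least 20 anterior UMIs, as did 69 of the lower genes in the posterior cells.

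Nr2f1 led the higher genes, with 99.7 CPM (interval 65.7 to 145.1) in anterior against 29.5 CPM (26.9 to 32.4) in posterior Spinal cord B cells, and its UMIs came from 13 of the 16 cells. The whole libraries lay with the anterior part at 95.6 and 109.8 CPM. Nr2f2 was alike, with 88.6 CPM (56.8 to 131.9) in anterior against 40.9 CPM (37.7 to 44.2) in posterior cells. Ifitm3, a membrane protein of interferon response, had 121.9 CPM in anterior against 40.0 CPM in posterior cells, with 14 of its 33 UMIs in 1 cell. Chac1, a gene of the stress response, had 107.1 CPM in anterior and 45.8 CPM in posterior cells but 4.89 and 5.01 CPM in the whole libraries. Abhd11os, Cotl1, Itga6 and Fbn2 were higher by log2 differences of 1.05 to 1.12. With TMM factors, which shift all genes by -0.27, these genes, Nr2f2 (1.10) and Chac1 (1.21) fell below 2-fold. Nr2f1 and Ifitm3 stayed past it.

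The 8 lower genes named by the rule had no UMI in the 16 anterior cells. A count of 0 allows up to 11.1 CPM (3 counts), and the upper end of its exact Poisson interval is 13.6 CPM. Against the level of 3 counts, and at the posterior level as measured, Nkx1-2 was at least 3.43-fold lower in anterior than in posterior cells (38.0 CPM), Hoxd9 at least 3.07-fold lower (34.1 CPM) and Hoxc10 at least 1.88-fold lower (20.9 CPM). Steap1, Fam98c, Grb10, Pla2g7 and Gpatch2 were at least 1.87-fold to 2.73-fold lower. Hoxb9 and Hoxc9, by contrast, had 336.1 and 254.9 CPM in anterior and 289.0 and 281.4 CPM in posterior cells, and their intervals overlapped. Cdx2 had 40.6 CPM (20.3 to 72.7) in anterior against 136.0 CPM (130.1 to 142.0) in posterior cells.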

How the data were processed

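Single-cell RNA-seq of wild-type mouse stembryos comprised 6 libraries. Per the labels and the study's methods, the authors aligned reads to mm10 with a modified Ensembl annotation, obtained UMI counts with Cell Ranger 6.0, and filtered cells with Seurat 4.0.2 by genes, UMIs and mitochondrial share. The authors deposited raw counts of 25595 genes, and for each cell its mitochondrial percent, S and G2/M phase scores, phase and fate, the name of its cluster. Doublets had been removed by an upper UMI limit and no caller was run. The scores entered only through the phases. Columns of samples not used: 0.

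Counts were summed per library and fate and scaled to CPM (Python 3.11.15, numpy 2.4.6, scipy 1.17.1). A fate entered a call with at least 20 cells. Calls needed a 2-fold difference in each of 3 libraries, a pseudocount of 1 CPM and a mean of at least 5 CPM over both sides. A simulation with known folds was used to check the script. The rule for named genes took the 9 markers, the 15 genes farthest above and the 10 farthest below the rest by their smallest difference over libraries among genes with at least 20 CPM, 10 each way against Spinal cord A, 6 each way against NMPs C, 8 each way between parts, the 10 most variable genes, all Hox genes and leading members of 24 gene lists. Predicted genes were counted but not named. The members and lists were chosen with earlier results of these data known. Cells were thinned by drawing UMIs without replacement. Alternatives were TMM factors from edgeR 4.0.16, other filters, pseudocounts, cells and references, and leaving out each library. The genome annotation used for gene positions was GENCODE on GRCm38, the build of mm10. Some genes are not reported here.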

Additional observations from a re-analysis of the deposited data

Results flagged for a closer look

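In the 16 anterior Spinal cord B cells, which entered no call, the 9 markers summed to 528.2 CPM, against 4.73 CPM in the other anterior cells.

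For 2 genes the difference in the posterior part went against that in both whole libraries, by at least 0.5 on the log2 scale each way. Crabp1, a second carrier of retinoic acid, differed between Spinal cord B and the rest by -0.52 in the posterior part and by 0.96 and 0.84 in the whole libraries. Tubb3, a tubulin of neurons, differed between Spinal cord B and Spinal cord A by 0.73 in the posterior part and by -0.75 and -0.52 in the whole libraries. Its levels were 28.8 CPM in Spinal cord B against 17.0 CPM in Spinal cord A of the posterior part. Neither difference between libraries was tested, since there was 1 posterior library.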

How the results depend on the processing

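No paired analysis was possible because no result here comes from a test between groups of libraries. Fates were compared within each library. Whole stembryos at 120 h and 96 h share both replicate numbers, but the 96 h libraries held 0 and 1 Spinal cord B cells, and the 2 dissected parts share 1 number. Counts of called genes moved by more than 1.5 times with a 1.5-fold limit, to 179 higher and 232 lower against the rest, 161 and 99 against Spinal cord A, and 188 and 231 against NMPs C. With no filter on low values, 191, 60 and 169 genes were lower. Leaving out each of the 3 libraries gave 83 to 120 genes higher and 129 to 177 lower against the rest, 62 to 124 higher and 40 to 54 lower against Spinal cord A, and 94 to 114 higher and 121 to 135 lower against NMPs C. The top values against the rest and Spinal cord A came without the posterior part, with 77 of 78 and 64 of 64 genes kept. With 1 library fewer, the rules for a call and for the highest fate are easier to pass. A called gene could then drop out only through the filter on low values, so these high shares were fixed in advance. Genes highest in Spinal cord B numbered 254 to 483 in these fits, in alternatives chosen after seeing the data. The anterior part had entered no call, so leaving it out changed nothing. Between the parts, TMM factors gave 211 genes higher and 993 lower, no filter 1295 and 2631, G1 cells only, with 3 anterior cells, 1711 and 2153. In those cells Nr2f2 had -0.60, the 1 reversal. Of Spinal cord A and B cells, B made up 54.4%, 63.5%, 24.6% and 43.2% in whole replicates 1 and 2 and the posterior and anterior parts. The anterior share rests on 16 of 37 cells (Wilson interval 28.7% to 59.1%). The 21 anterior Spinal cord A cells had a median of 6622 UMIs and a median mitochondrial share of 5.87%. Sox2 had 1 UMI in them (6.86 CPM), against 157.8, 202.2 and 202.0 CPM in Spinal cord A of whole replicates 1 and 2 and the posterior part. The anterior share is therefore hard to compare with the others. Of 628 values of named genes, 564 moved by less than 1 SD or their interval, 63 by more and 1 reversed; the causes were not tested. Among the 10 most variable genes, 8 were also in the top 10 at 8000 UMIs. Depth limits the anterior cells most, where 1 UMI is 3.69 CPM.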

Other observations

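Several secreted factors and receptors outside the lists were higher in Spinal cord B than in the rest, chosen here after their values were seen. Wnt4, a Wnt ligand of the neural tube and kidney, had 30.1, 19.5 and 47.2 CPM in Spinal cord B, against 4.29, 4.91 and 9.81 CPM in the rest, and it was called. Cntfr, the receptor for ciliary neurotrophic factor, had 54.3, 49.4 and 45.1 CPM, against 9.31, 11.1 and 13.8 CPM in the rest. Ptn, a heparin-binding growth factor, was the most abundant of the 78 genes after Crabp2, with 1039, 868.8 and 631.4 CPM in Spinal cord B, against 470.2, 404.7 and 314.8 CPM in the rest. Irx1 and Irx2, of the second Iroquois cluster, were called with log2 differences of 1.45 ± 0.47 and 1.36 ± 0.10, so 4 Iroquois genes were called in all.

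The 1 cell named Spinal cord B at 96 h, in whole replicate 2, was in G2/M phase and held 12616 UMIs, 3 of them from the 9 markers. In the other 2648 cells of that library the markers summed to 26.6 CPM.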
